A study of Mus musculus with 6 samples.

Results

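Mineralization enzymes and bone matrix phosphoproteins were followed in bone marrow mesenchymal stem cells (MSCs) from mice labelled as Pcif1 conditional knockout and from their floxed controls. The 10 genes were Alpl, Enpp1, Phospho1, Slc20a1, Slc20a2, Ibsp, Spp1, Mgp, Phex and Dmp1, chosen by symbol from a count table of 20071 Ensembl genes, and each symbol matched 1 row. MSCs were taken from the femurs of 6-week-old mice on a C57BL/6J background and were kept for 7 days in osteogenic medium, which held dexamethasone at 100 nM, ascorbic acid at 50 μg/mL and, as a phosphate donor, β-glycerophosphate at 5 mM. The control group, labelled WT, came from Pcif1fl/fl mice, in which loxP sites flank exons 5 to 7 of Pcif1, so the floxed allele was shared by both groups. The other group, labelled Pcif1 CKO, came from Prrx1-Cre;Pcif1fl/fl mice, in which Cre is made in limb mesenchyme, and the 2 groups are called WT and CKO here. Each group had 3 poly(A) RNA libraries by the sample labels, although the design text speaks of duplicates, and p-values measure the spread between these libraries, since whether they came from separate mice is not given.

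Bone mineral forms when phosphate and calcium precipitate within and around collagen. Inorganic pyrophosphate blocks crystal growth, and the balance is set by enzymes that make it, export it and break it down, by phosphate transporters, and by acidic phosphoproteins of the matrix. ALPL, the tissue-nonspecific alkaline phosphatase, splits pyrophosphate to phosphate and also splits the β-glycerophosphate of osteogenic medium, while ENPP1 makes pyrophosphate from nucleotides. Osteopontin, bone sialoprotein and DMP1 belong to the SIBLING family (small integrin-binding ligand N-linked glycoproteins), whose genes lie side by side on chromosome 5.

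The libraries held between 20258209 and 28227696 counts. Pcif1 was at 42.8, 41.7 and 39.3 CPM (counts in each 1e6, scaled by the TMM factors of edgeR) in WT libraries, and 39.2, 37.8 and 39.7 CPM were found in CKO libraries. Values of single libraries are always given in the order of replicates 1, 2 and 3. The groups overlapped for Pcif1 (log2 fold change -0.085, adjusted p = 0.645 from edgeR), and counts per gene do not show whether exons 5 to 7 were removed. WT replicate 3 stood apart: mitochondrial genes took 3.63% of its counts against 1.40% to 1.57% in the other 5 libraries, and the log2 differences between genes had an SD of 0.51 and 0.45 from replicates 1 and 2, against 0.24 between those 2 libraries. Xist was counted between 5309 and 12347 times in each WT library and between 15 and 36 times in each CKO library, while Uty, Kdm5d, Ddx3y and Eif2s3y, all Y-linked, had reads in every library but lower levels in the WT group without overlap, so a difference in the sex of the cells behind the groups cannot be told apart from genotype. Stromal markers were present, with Prrx1 between 211 and 283 CPM and Col1a1 between 3485 and 6359 CPM. Macrophage markers were abundant too: Lyz2 was between 21981 and 26233 CPM and Csf1r between 940 and 1244 CPM over the 6 libraries. Of 14 macrophage markers, 0 passed an adjusted p of 0.05 in edgeR, beside 7.4% of all genes tested, and 0 in limma-voom. In DESeq2 2 did (Cd14 and Itgam). An unadjusted p under 0.05 in edgeR was found for 3, beside 21.4% of all genes tested. The groups did not overlap for 4 of the 14, 1 lower (Csf1r) and 3 higher (Adgre1, Cd14 and Itgam), beside 30.8% of all genes tested. The summed level of the 14 markers was 32763 to 36141 CPM in WT and 33665 to 36855 CPM in CKO libraries. Of 8 adipocyte markers, 4 fell at an adjusted p under 0.05 in edgeR, where 4.51% of all genes tested were lower. Adipoq was 55.9-fold and Pparg 2.97-fold higher in WT MSCs, and Cfd and Plin1 were at 0 in every CKO library. Fabp4, on the same list, had the opposite sign with separated groups (log2 fold change 0.46, adjusted p = 0.0545 from edgeR) and was called higher by DESeq2, and the summed adipocyte marker level, most of which came from Cd36, Lpl and Cebpa, was 1203 to 1302 CPM in WT and 1114 to 1368 CPM in CKO libraries. These 3 genes did not pass the test. Of 10 stromal markers, 4 fell (Cxcl12, Eng, Lepr and Pdgfra) and 4 rose (Col1a1, Col1a2, Ly6a and Thy1), beside 4.51% and 2.88% of all genes tested. The log2 fold changes of Lepr, the leptin receptor, and Cxcl12, a chemokine of marrow stroma, were -2.72 and -2.44, and those of Thy1 and Ly6a were 1.52 and 1.12. The stromal sum, most of it Col1a1 and Col1a2, was 10533 to 13410 CPM in WT and 13517 to 14390 CPM in CKO libraries. The part of these marker shifts in the levels of the 10 genes was not tested.

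The comparison of the genotypes asked how the mineralization genes stand in osteogenic MSCs labelled Pcif1 CKO against those labelled WT. Alpl and Ibsp were lower in CKO MSCs, each by more than 2-fold, and no other member passed the test. Thus 2 of the 10 genes were lower at an adjusted p under 0.05, where 4.51% of the 13733 genes tested were lower, and 0 were higher, where 2.88% were higher, so 2 of 10 were called in either direction, beside 7.4%. Both also passed a log2 fold change of -1, as did 2.5% of all genes, and 0 members rose past 1, as 1.03% of all genes did. All 10 members passed the expression filter. At an unadjusted p under 0.05, Slc20a2 was lower and Enpp1 and Slc20a1 were higher, which makes 5 of the 10 with Alpl and Ibsp, against 21.4% of all genes tested. DESeq2 and limma-voom also called 0 members higher. The median log2 fold change of the members was 0.05, beside 0.0017 for all genes tested, with 5 members below and 5 above 0. In 6 of the 10 genes the libraries of the 2 groups did not overlap, 4 lower and 2 higher, against 30.8% of all genes tested.

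**Figure D1:**
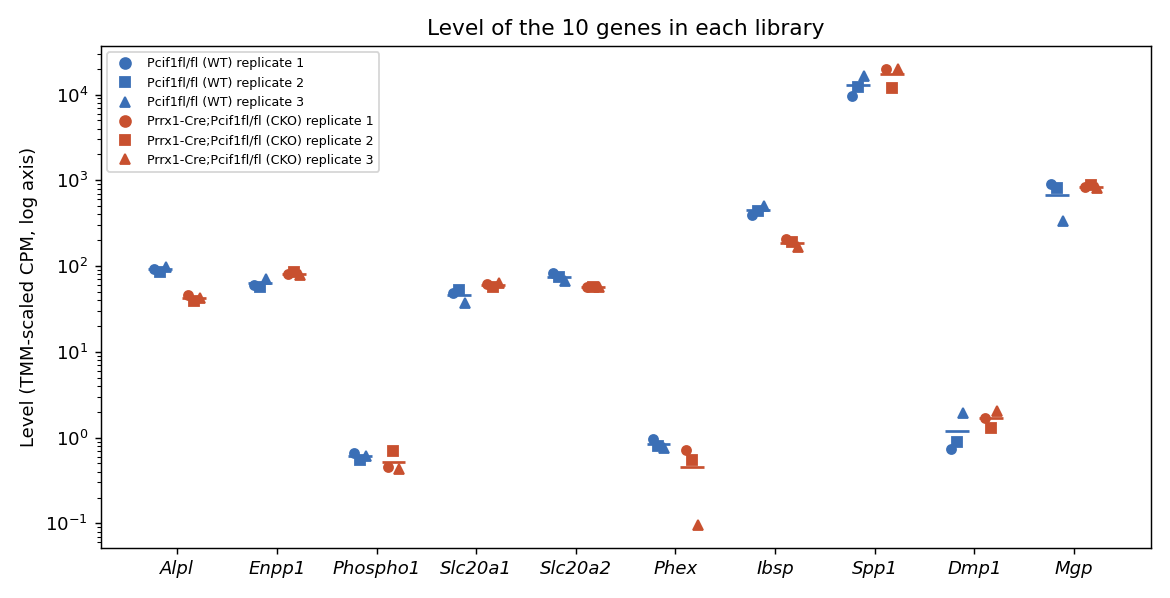
Level of each of the 10 genes in TMM-scaled CPM on a log axis, with 1 symbol per library and a line at the group mean. Alpl and Ibsp are lower in all 3 CKO libraries, the Mgp level of WT replicate 3 lies at 335 CPM below all other libraries, and Phospho1, Phex and Dmp1 stay at 2.02 CPM or less.

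Per kilobase of exon, Spp1 was the most abundant member in both groups, at 7769 ± 2139 CPM per kb (SD, n = 3) in WT and 10445 ± 2853 CPM per kb (SD, n = 3) in CKO MSCs. Mgp, at 574 ± 256 CPM per kb (SD, n = 3), Ibsp, at 216 ± 25.2 CPM per kb (SD, n = 3), and Alpl, at 22.8 ± 1.45 CPM per kb (SD, n = 3), followed in WT MSCs. The level of Slc20a2 there was 12.1 ± 1.21 CPM per kb (SD, n = 3), that of Slc20a1 8.22 ± 1.47 CPM per kb (SD, n = 3) and that of Enpp1 6.15 ± 0.730 CPM per kb (SD, n = 3), and the libraries of the last pair overlapped. Dmp1, Phospho1 and Phex closed the order, at 0.429, 0.298 and 0.134 CPM per kb in WT MSCs, with overlap between Dmp1 and Phospho1. In CKO MSCs Alpl lay at 10.6 ± 0.853 CPM per kb (SD, n = 3), behind Slc20a1 at 10.8 ± 0.624 CPM per kb (SD, n = 3), and the libraries of these 2 genes overlapped. Slc20a2, at 9.20 ± 0.0877 CPM per kb (SD, n = 3), came next there and lay below Slc20a1 in every CKO library, the reverse of their order in WT MSCs. The places of the other 7 members were the same in both groups.

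Among the pyrophosphate and phosphate enzymes, Alpl (ENSMUSG00000028766, chromosome 4, 137741733 to 137796384, minus strand of GRCm38) stood at 91.6, 86.0 and 97.7 CPM in the WT libraries, against 46.1, 39.3 and 42.3 CPM in the CKO libraries. Every CKO library lay below every control library. The Alpl log2 fold change was -1.11 with an SE of 0.10 and an adjusted p of 0.000464 (edgeR, quasi-likelihood, Benjamini-Hochberg over all genes tested), so the level was 2.15-fold higher in controls. In bulk RNA, fewer alkaline phosphatase-expressing cells and less Alpl RNA per cell cannot be told apart. By count, Alpl ranked between 2235 and 2456 among all genes in the control libraries and between 4596 and 5159 in the CKO libraries. RefSeq lists 2 Alpl starts, and a count per gene does not show which was used.

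Enpp1 (ENSMUSG00000037370, chromosome 10, 24637914 to 24712159, minus strand), which makes the pyrophosphate that ALPL removes, was at 60.0, 57.6 and 71.6 CPM in the WT libraries, against 80.3, 84.3 and 77.8 CPM in the CKO libraries. All CKO libraries lay above all control libraries, yet the log2 fold change of 0.36 (95% interval 0.11 to 0.60) had an adjusted p of 0.0901 in edgeR's test. Without WT replicate 3, which had the highest control level, the log2 fold change of Enpp1 was 0.46 (adjusted p = 0.000185 from edgeR), in a fit that called 11.1% of all genes higher. Phospho1 (ENSMUSG00000050860, chromosome 11, 95824499 to 95832140, plus strand), a phosphatase of matrix vesicles that frees phosphate from phosphocholine and phosphoethanolamine, was little above the floor of 3 counts, with 15, 15 and 17 counts in controls and 10, 14 and 9 counts in the CKO libraries. Its log2 fold change was -0.20 with an SE of 0.35, so a change of this gene was not detectable at this depth. A further limit is that 89.6% of its exonic bases overlap exons of Abi3 (antisense) and Zfp652 (same strand), whose reads cannot be told from its own.

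The ratio of Alpl to Enpp1 counts within a library does not depend on how libraries are scaled. It was 1.53, 1.49 and 1.37 in the WT libraries and 0.574, 0.466 and 0.544 in the CKO libraries, so counts of Alpl exceeded those of Enpp1 in each control library and fell short of them in each CKO library. These counts are not divided by exon length, which is 4033 bases for Alpl and 10257 for Enpp1. Per kilobase of exon, Alpl stayed above Enpp1 in every CKO library, at 11.4, 9.74 and 10.5 against 7.83, 8.22 and 7.59 CPM per kb. The mean log2 ratio was 0.55 ± 0.086 (SD, n = 3) against -0.93 ± 0.16 (SD, n = 3), a difference of -1.47 (exact two-sided permutation test, p = 0.1, the smallest that 3 against 3 libraries allow). Since Alpl and Enpp1 were each separated in opposite directions, the separation of their ratio and this p follow from that and add no evidence. Leaving out any 1 library gave differences from -1.54 to -1.39.

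**Figure D2:**
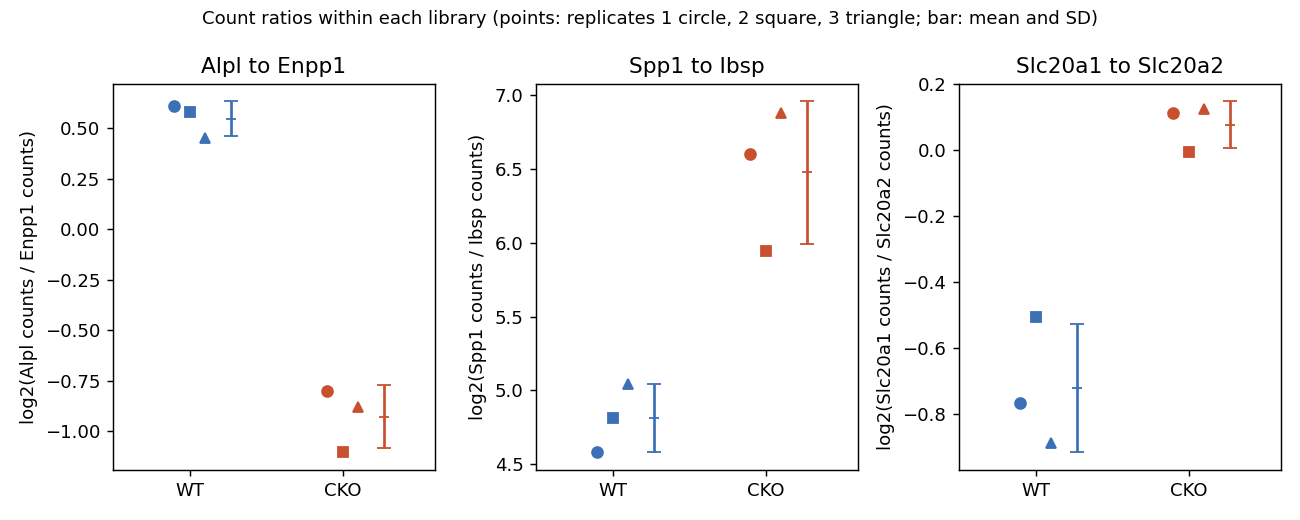
log2 ratio of the counts of 2 members within each library for the pairs Alpl to Enpp1, Spp1 to Ibsp and Slc20a1 to Slc20a2, with 1 symbol per library and the mean and SD beside them. In all 3 panels the WT and CKO libraries do not overlap, and the differences of the means are -1.47, 1.67 and 0.80. For Alpl to Enpp1 and Slc20a1 to Slc20a2 the lack of overlap follows from that of the single genes.

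The phosphate transporters are sodium-phosphate cotransporters of the cell surface. Slc20a2 (PiT-2, ENSMUSG00000037656, chromosome 8, 22476788 to 22569612, plus strand) was at 82.8, 74.3 and 67.8 CPM in the WT libraries, against 57.4, 56.6 and 57.6 CPM in the CKO libraries. The groups did not overlap, and the log2 fold change of Slc20a2 was -0.39 (95% interval -0.62 to -0.16, adjusted p = 0.0541 from edgeR), which missed the threshold. Slc20a2 passed the threshold with DESeq2 (adjusted p = 0.0234), with total-count scaling (edgeR, adjusted p = 0.0492) and without WT replicate 3 (edgeR, adjusted p = 0.000263). Slc20a1 (PiT-1, ENSMUSG00000027397, chromosome 2, 129198764 to 129211616, plus strand) had the opposite sign, with 48.7, 52.3 and 36.6 CPM in controls and 62.0, 56.4 and 62.8 CPM in the CKO libraries. Here the lowest library was WT replicate 3, and the groups did not overlap. The log2 fold change of Slc20a1 was 0.40 (95% interval 0.078 to 0.72, adjusted p = 0.142 from edgeR), and 0.26 without that library (adjusted p = 0.0248 from edgeR), a value 1.5 times smaller. Exons of antisense genes cover 13.1% of Slc20a1 and 1.53% of Slc20a2 exonic sequence.

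The count ratio of Slc20a1 to Slc20a2 was 0.588, 0.704 and 0.540 in the WT libraries and 1.08, 0.996 and 1.09 in the CKO libraries. The mean log2 ratio differed by 0.80 between the genotypes (exact two-sided permutation test, p = 0.1, the smallest possible). The summed level of both transporters, a quantity chosen after their values were seen, was 121 ± 14.4 CPM (SD, n = 3) in WT MSCs against 118 ± 4.02 CPM (SD, n = 3) in those labelled CKO, and these differed by less than the spread between libraries (exact two-sided permutation test, p = 0.8).

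Of the matrix phosphoproteins, Ibsp was the one that passed the test with all 6 libraries. Ibsp (ENSMUSG00000029306, chromosome 5, 104299171 to 104311469, plus strand) encodes bone sialoprotein, an acidic protein of mineralizing matrix that binds hydroxyapatite and integrins. Its level was 399, 439 and 502 CPM in the WT libraries, against 205, 192 and 168 CPM in the CKO libraries. Each control library was above each CKO library, and the log2 fold change of Ibsp was -1.25 (SE 0.12, adjusted p = 0.000585 from edgeR), or 2.37-fold higher in controls. The highest control level of Ibsp belonged to WT replicate 3, and without it the log2 fold change was -1.15 (adjusted p = 4.63e-08 from edgeR).

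Spp1 (ENSMUSG00000029304, chromosome 5, 104435118 to 104441050, plus strand) encodes osteopontin, which inhibits crystal growth when phosphorylated and is made by osteoblasts and by macrophages alike. It was among the 5 most counted genes of every library. The level was 9543, 12323 and 16544 CPM in the WT libraries, against 19992, 11786 and 19863 CPM in the CKO libraries. CKO replicate 2 lay within the control range, while replicates 1 and 3 lay above it. The log2 fold change of Spp1 was 0.43 (95% interval -0.14 to 0.99, adjusted p = 0.375 from edgeR). Without WT replicate 3 it was 0.66 (adjusted p = 0.0110 from edgeR), although the groups still overlapped. Without WT replicate 1 it was 0.26 (adjusted p = 0.549 from edgeR), and without CKO replicate 1 or 3 it was 0.31, so the size of the Spp1 difference varied with the libraries kept. Osteoclasts make osteopontin too, and the summed level of 7 osteoclast markers was 159 to 170 CPM in WT and 204 to 242 CPM in CKO libraries. Most of that sum was Ctsk and Atp6v0d2. Ctsk was higher in CKO libraries without overlap (adjusted p = 0.226 from edgeR), while the groups overlapped for Atp6v0d2, Acp5 and Mmp9. The markers Calcr, Dcstamp and Ocstamp had 0 to 11 counts per library. The part of macrophages and osteoclasts in the Spp1 level was not tested. Exons of Gm42793 on the same strand overlap 18.8% of the exonic bases of Spp1.

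Spp1 and Ibsp thus had opposite signs. Within a library there were 23.9, 28.1 and 33.0 Spp1 counts per Ibsp count in the WT libraries and 97.4, 61.5 and 118 in the CKO libraries. The groups did not overlap, and the log2 ratio was 4.81 ± 0.23 (SD, n = 3) against 6.48 ± 0.48 (SD, n = 3), a difference of 1.67 (exact two-sided permutation test, p = 0.1, the smallest possible). Leaving out 1 library gave differences from 1.46 to 1.93.

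Dmp1 (ENSMUSG00000029307, chromosome 5, 104202613 to 104214102, plus strand), dentin matrix protein 1, marks late osteoblasts and osteocytes and was scarce. It had 17, 24 and 54 counts in WT replicates 1 to 3, or 0.743, 0.882 and 1.94 CPM, and 38, 26 and 42 counts in the CKO libraries, or 1.71, 1.29 and 2.02 CPM. WT replicate 3 lay with the CKO libraries, and the other controls lay below them. The log2 fold change of Dmp1 was 0.48 (95% interval -0.42 to 1.39, adjusted p = 0.539 from edgeR) with all libraries and 1.04 without WT replicate 3 (adjusted p = 0.0528 from edgeR).

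The SIBLING genes Dmp1, Ibsp, Mepe and Spp1 lie on the plus strand of chromosome 5 within 238.4 kb, between Sparcl1 and Pkd2. Of the 3 SIBLING genes tested, Ibsp alone passed with all libraries. It fell, and Mepe, which lies 13.9 kb behind it and encodes a phosphoprotein of osteocytes, had 2 counts in WT replicate 1 and 0 in the other 5 libraries. Pkd2, which encodes the cation channel polycystin-2 and lies 18.4 kb behind Spp1, was higher in CKO MSCs, with a log2 fold change of 0.41 (adjusted p = 0.0494 from edgeR). Sparcl1, at the other edge, had 1.92, 1.91 and 3.08 CPM in WT and 1.13, 1.79 and 0.722 CPM in the CKO libraries (log2 fold change -0.93, adjusted p = 0.182 from edgeR).

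**Figure D3:**
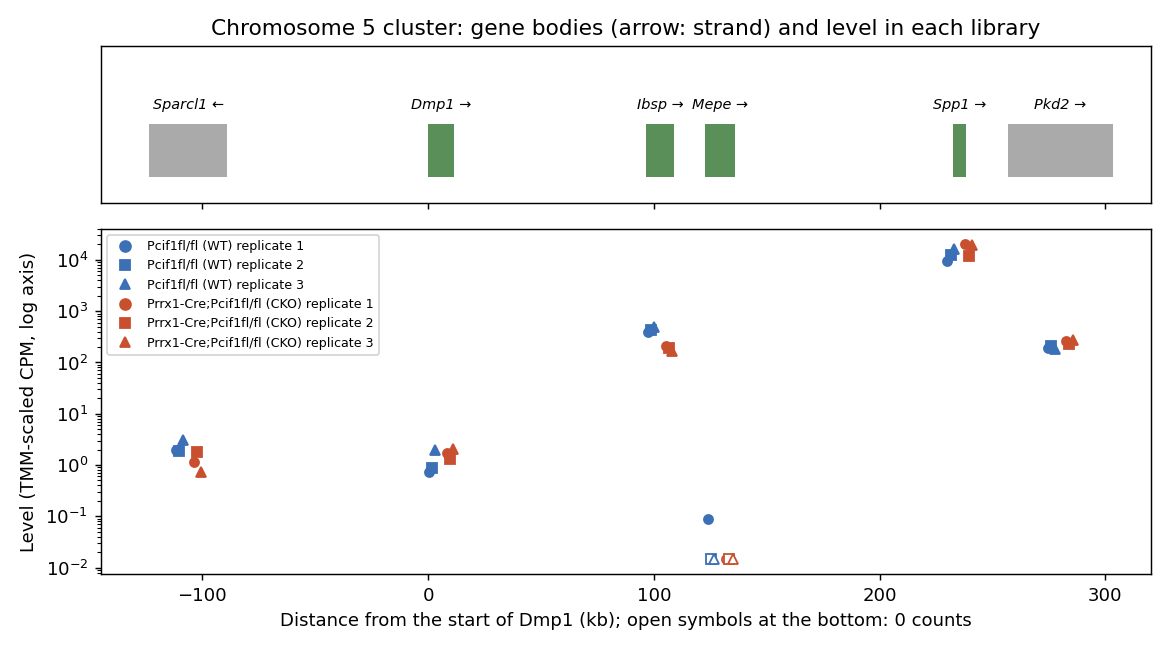
Gene bodies of the SIBLING cluster on chromosome 5 by distance from the start of Dmp1 in kb, above the level of each gene in each library in TMM-scaled CPM on a log axis. Spp1 and Ibsp are the abundant SIBLING genes, Mepe is at 0 counts in 5 of the 6 libraries (open symbols), and Ibsp is the SIBLING gene with separated groups.

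Upstream sequences of the 3 SIBLING members and of Alpl are shown because their levels and the signs of their log2 fold changes differed although the SIBLING genes are neighbours. The sequences come from RefSeq on GRCm38.p6, which held 12 start windows for 8 of the 10 members, and each runs from 120 bases before the annotated start to base 10 counted from it. Capitals mark every match, on either strand, to 5 motifs. The CCAAT box was searched as CCAAT, and the TATA box as TATAAA. For the RUNX core the letters were ACCACA, for a homeodomain site TAATTA, and for the GC box GGGCGG. None of these motifs contains another.
Ibsp (chr5:104299167-104299296, plus strand): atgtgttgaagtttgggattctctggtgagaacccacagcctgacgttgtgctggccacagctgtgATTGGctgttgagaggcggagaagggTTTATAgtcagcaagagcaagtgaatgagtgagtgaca
Spp1, first start (chr5:104434991-104435120, plus strand): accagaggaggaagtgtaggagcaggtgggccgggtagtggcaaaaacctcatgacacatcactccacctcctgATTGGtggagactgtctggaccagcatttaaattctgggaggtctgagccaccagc
Dmp1, second start (chr5:104202497-104202626, plus strand): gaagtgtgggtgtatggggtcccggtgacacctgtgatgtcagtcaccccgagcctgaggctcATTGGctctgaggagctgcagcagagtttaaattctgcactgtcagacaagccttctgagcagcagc
Alpl, first start (chr4:137796375-137796504, minus strand): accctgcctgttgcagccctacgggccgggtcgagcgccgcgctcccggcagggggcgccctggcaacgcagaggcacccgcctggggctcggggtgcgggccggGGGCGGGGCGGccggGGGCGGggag

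The Ibsp, Spp1 and Dmp1 windows each held a CCAAT box in reverse, ATTGG, beginning at -54, -46 and -57 from the start, and 6 of the 12 member windows of 300 bases held this motif somewhere, beside 37.4% of all 32851 RefSeq windows. Ibsp also held the TATA box in reverse, beginning at -28. A TATA box match lay in 4 of the 12 member windows of 300 bases, the others being those of the first Spp1 start (-211), the first Slc20a1 start (-1) and the second Alpl start (-192), beside 13.6% of all windows. The window of the first Alpl start held 3 GC boxes, of which the first pair share bases, and no CCAAT or TATA match, and 5 of the 12 member windows held a GC box, beside 35.7% of all windows. A RUNX core match lay in 4 of the 12 member windows, among them those of Enpp1 (-144) and of the first Spp1 start (-128), beside 16.8% of all windows. A homeodomain match lay in 1 member window, that of the second Spp1 start, beside 5.29% of all windows. These matches are descriptions of sequence and no binding was measured.

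PCIF1 methylates adenosine when it is the first base after the mRNA cap, so the first annotated base is given for Alpl and Ibsp, which fell, and for Enpp1, Slc20a1 and Spp1, which did not pass the test with all libraries, in capitals within 20 bases around the start.
Alpl, first start (chr4:137796375-137796394, minus strand): gggcggccggGggcggggag
Ibsp (chr5:104299277-104299296, plus strand): aagtgaatgaGtgagtgaca
Enpp1 (chr10:24712150-24712169, minus strand): aaatagcccaCgcgcccagg
Slc20a1, first start (chr2:129198763-129198782, plus strand): agaaccggctAtaaatagga
Spp1, first start (chr5:104435101-104435120, plus strand): gggaggtctgAgccaccagc

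The first base was A in 3 of the 12 member windows, those of Phex and of the first starts of Slc20a1 and Spp1, beside 34.4% of all windows. The windows of the members that fell, Alpl and Ibsp, began with G or C, as did that of Enpp1. So did those of Phospho1 and Dmp1 and of the second Slc20a1 start, none of which passed the test with all libraries, and the second Spp1 start began with T. The start that these cells used was not measured.

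Mgp (ENSMUSG00000030218, chromosome 6, 136872435 to 136875823, minus strand) encodes matrix Gla protein, a vitamin K-dependent inhibitor of calcification. It was at 903, 807 and 335 CPM in the WT libraries, against 828, 882 and 819 CPM in the CKO libraries. A single library, WT replicate 3, was low and the other 5 overlapped. The log2 fold change of Mgp was 0.31 (95% interval -0.39 to 1.01, adjusted p = 0.614 from edgeR) with all libraries and -0.017 (adjusted p = 0.883 from edgeR) without that library.

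Phex (ENSMUSG00000057457, chromosome X, 157162075 to 157415312, minus strand) encodes an endopeptidase of osteoblasts and osteocytes that limits FGF23 and cleaves mineral-inhibiting peptides of SIBLING proteins. It had 22, 22 and 21 counts in the WT libraries and 16, 11 and 2 counts in the CKO libraries. The groups did not overlap, but the counts were near the floor and the log2 fold change of Phex, -0.86, had a 95% interval from -2.07 to 0.34 (adjusted p = 0.397 from edgeR). Without CKO replicate 3 it was -0.39 (adjusted p = 0.717 from edgeR), and without replicate 1 it was -1.37 (adjusted p = 0.361 from edgeR). Phex is X-linked, and the part of the difference in Xist in its level was not tested.

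**Figure D4:**
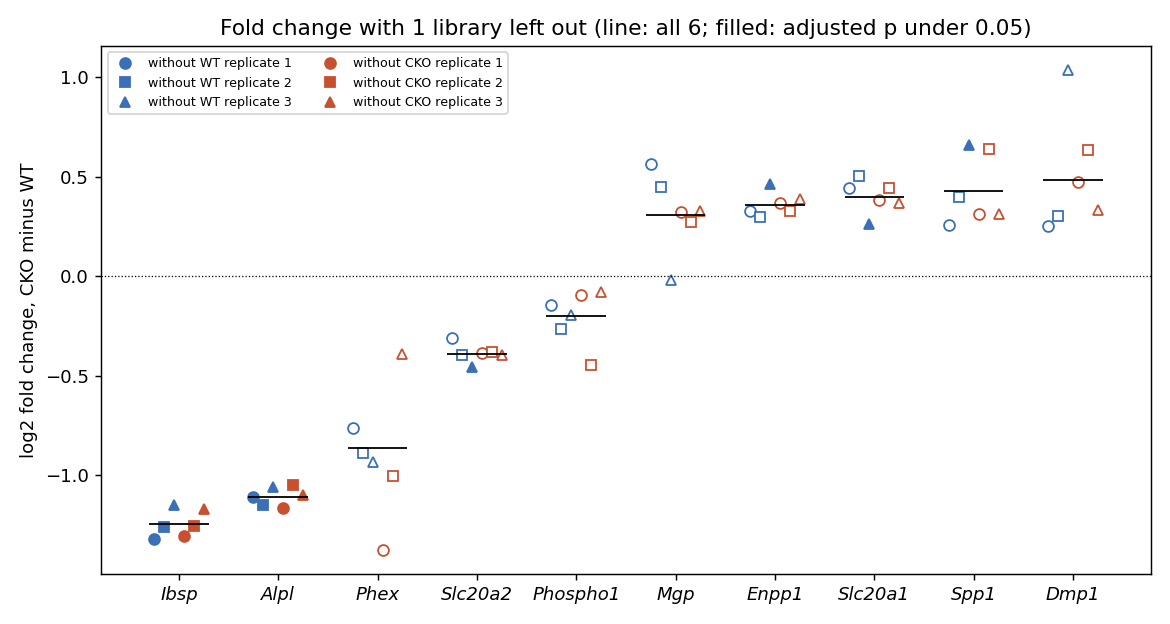
log2 fold change of each member, CKO minus WT, after leaving out 1 library at a time, with a line at the value from all 6 libraries and filled symbols where the adjusted p was under 0.05. Alpl and Ibsp stay filled below -1 in all 6 cases, while Enpp1, Slc20a1, Slc20a2 and Spp1 are filled only when WT replicate 3 is left out and Mgp moves from 0.31 to -0.017.

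Without WT replicate 3, the library that stood apart, 3 members were lower (Alpl, Ibsp and Slc20a2) and 3 were higher (Enpp1, Slc20a1 and Spp1) at an adjusted p under 0.05. In that fit 10.4% of all genes tested were lower and 11.1% higher. The change in the count of members therefore came with a rise in calls over all genes.

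Other genes of the mineralization pathway were taken from a list of 25, of which 23 had a row and 16 passed the expression filter, while Dspp and Slc34a3 were not analysed here. Fam20c and Ank rose and Enpp3 fell, so 2 of 16 were higher and 1 was lower, beside 2.88% and 4.51% of all genes tested. The median log2 fold change of the list was 0.10, beside 0.0017 for all genes tested, and 9 of the 16 were separated between genotypes, 6 higher and 3 lower, beside 30.8% of all genes. Fam20c, the Golgi kinase that phosphorylates SIBLING proteins, rose from 36.1, 34.7 and 35.4 CPM in WT to 60.9, 59.9 and 62.7 CPM in the CKO libraries. Its libraries were far apart by genotype, with a log2 fold change of 0.79 (SE 0.087, adjusted p = 0.00122 from edgeR). Ank, a transmembrane protein needed for the export of pyrophosphate, rose from 99.9, 96.2 and 115 CPM to 156, 151 and 177 CPM, a log2 fold change of 0.64 (SE 0.11, adjusted p = 0.00889 from edgeR). Without CKO replicate 3 the adjusted p of Ank was 0.0575 from edgeR. Enpp3, a relative of ENPP1 that hydrolyses nucleotides, fell from 1.83, 1.07 and 2.33 CPM to 0.720, 0.498 and 0.625 CPM, a log2 fold change of -1.49 (adjusted p = 0.0480 from edgeR), and it was past the threshold in 7 of 13 alternatives.

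**Figure D5:**
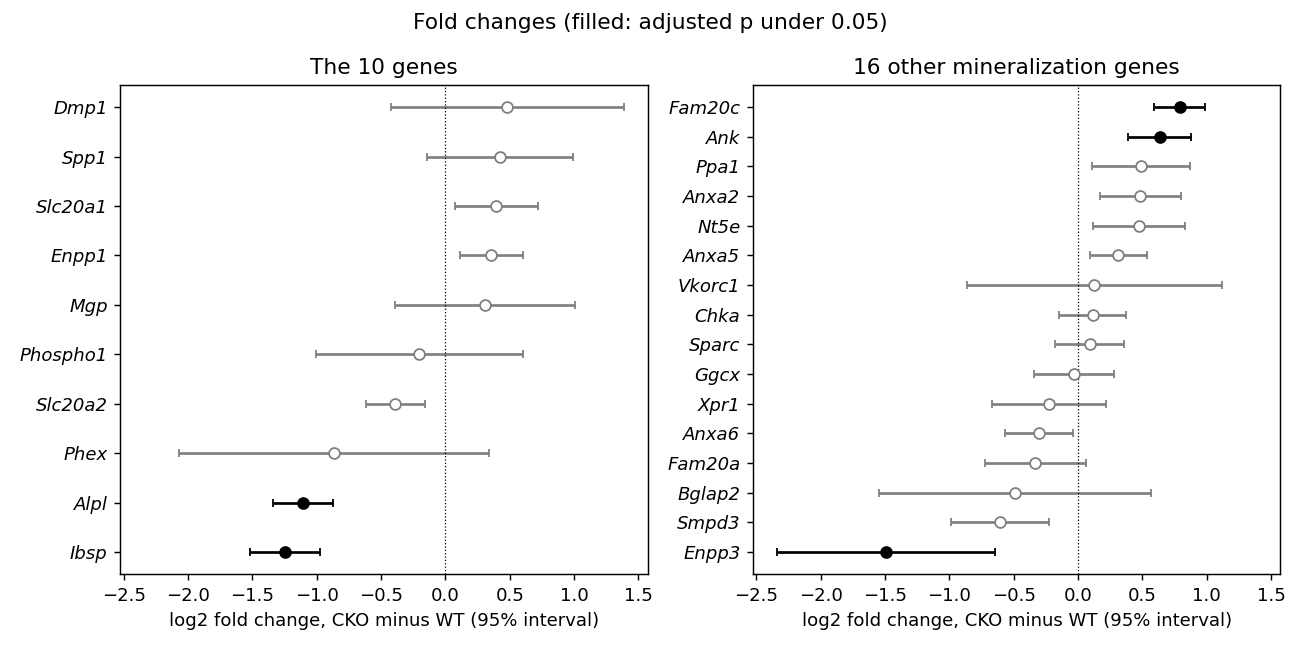
log2 fold change, CKO minus WT, with its 95% interval for the 10 members (left) and for the 16 other mineralization genes tested (right), filled where the adjusted p was under 0.05. Alpl, Ibsp and Enpp3 lie below 0 and Ank and Fam20c above 0 with filled symbols, and the intervals of Phex, Dmp1, Phospho1, Vkorc1 and Bglap2 are the widest of those that span 0.

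Other pyrophosphate and phosphate genes did not pass the test in edgeR with all libraries. Smpd3, the sphingomyelinase whose product feeds PHOSPHO1, had a log2 fold change of -0.60 (adjusted p = 0.0670 from edgeR) with separated groups. Nt5e, which makes adenosine and phosphate from AMP, was at 0.47 and Ppa1, a cytosolic pyrophosphatase, at 0.49 on the log2 fold change scale (adjusted p = 0.118 and 0.130 from edgeR), again with separated groups. Without WT replicate 3, Smpd3, Nt5e and Ppa1 all passed in edgeR (adjusted p = 0.0120, 0.0324 and 0.0167), and DESeq2 called Smpd3 with all libraries. These 3 were named after their values were seen. Abcc6, Ahsg, Fgf23, Mepe, Slc34a1 and Slc34a2 were hardly counted: 5 of them had at most 3 counts in every library, and Ahsg did so in the CKO libraries, where it was at 0.

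Osteocalcin and several osteocyte genes were scarce in both groups. Bglap, which encodes osteocalcin, had 1 to 5 counts per library, and Bglap2 had 30, 46 and 14 counts in WT and 14, 16 and 22 counts in the CKO libraries. Of 7 osteocyte genes, 3 passed the filter, with a median log2 fold change of 0.40. Irx5 fell, whereas Pdpn (log2 fold change 0.61, adjusted p = 0.0520 from edgeR) and Capg (0.40, adjusted p = 0.188 from edgeR) had the opposite sign with separated groups, and DESeq2 and limma-voom also called Pdpn. Of the remaining osteocyte genes, Mepe, Fgf23 and Dkk1 had at most 3 counts in every library and Sost was not analysed here. Of 12 osteoblast genes, 10 were tested, of which 2 fell and 2 rose in edgeR, beside 4.51% and 2.88% of all genes tested, and DESeq2 also called Dlx5 lower and Atf4 higher. Sp7 and Pth1r, a transcription factor and the parathyroid hormone receptor of the lineage, fell by 1.88 and 1.21 on the log2 scale, in the direction of Alpl and Ibsp. Col1a1 and Col1a2, the chains of type I collagen, rose by 0.61 and 0.64 on that scale (adjusted p = 0.0154 and 0.0322 from edgeR). Of the marker lists for other cells, 0 of 4 osteoclast, 0 of 6 endothelial and 0 of 4 smooth muscle genes tested passed in edgeR or limma-voom. In edgeR 7.4% of all genes tested passed. An unadjusted p under 0.05 in edgeR was found for 2, 1 and 1 of them, beside 21.4% of all genes tested. DESeq2 called 1 in each (Atp6v0d2, Cdh5 and Cnn1). Col10a1, a collagen of hypertrophic cartilage, fell among 3 chondrocyte genes tested (log2 fold change -1.61), where 4.51% of all genes tested were lower. Col2a1, the collagen of hyaline cartilage, had the opposite sign with separated groups (log2 fold change 0.69, adjusted p = 0.111 from edgeR) and was called higher by DESeq2. The summed level of the chondrocyte markers was 19.4 to 26.8 CPM in WT and 24.7 to 29.9 CPM in CKO libraries. That of the endothelial markers was 24.3 to 37.3 CPM in WT and 21.1 to 23.3 CPM in CKO libraries, and that of the smooth muscle markers 484 to 646 CPM and 532 to 558 CPM. The part of other cells in the levels of the members was not tested.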

How the data were processed

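Poly(A) RNA of MSCs was sequenced on an Illumina platform (PE150) by the authors, who aligned the filtered reads with HISAT2 (mm10) and deposited whole-number counts per gene, not normalized. How reads were assigned to genes, and whether strand was used, is not given in the sources used here, so overlapping genes can share reads. Of 20163 rows, 92 repeated an Ensembl ID with identical counts and were dropped. The main test was edgeR 4.0.16 under R 4.3.3 (filter filterByExpr, scaling TMM, glmQLFit and glmQLFTest, Benjamini-Hochberg adjustment over 13733 genes), with no covariate. Standard errors are the log2 fold change over the square root of F, and 95% intervals use the moderated degrees of freedom. A level of at most 3 counts in every library was called the floor. Positions and exon lengths came from GENCODE M21 on GRCm38 (mm10), and promoters from RefSeq. Alternatives were DESeq2 1.42.0, limma-voom (limma 3.58.1), other scalings and filters, a replicate block and leaving out each library. On simulated counts for the CKO against WT comparison, in which 200 genes had a log2 change of 2 in size, edgeR recovered 98.0% among 13685 genes tested, with 15 false calls. For limma-voom the values were 98.0% and 13 false calls, and for DESeq2 97.0% among 19488 genes tested and 27 false calls. Recovery of smaller log2 fold changes, such as those of all 10 members, was not tested. The members and the gene lists were chosen with earlier results of these data known. Named genes were all members, the pathway-list genes past the threshold or at the floor, the cluster neighbours and the 4 osteoblast genes with the smallest p, with counts for marker lists. Nt5e, Ppa1, Smpd3, Ahsg, Bglap, Bglap2, Irx5, Pdpn, Capg and single genes of the marker lists were named outside this rule, after their values were seen. Same-numbered libraries did not deviate together, so the numbers were not used as pairs. Intervals cover the spread between libraries and counting error alone, and reads copied by PCR count as separate.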

Additional observations from a re-analysis of the deposited data

How the results depend on the processing

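Alpl and Ibsp were past the threshold in all 13 alternatives, with log2 fold changes from -1.16 to -1.05 and from -1.32 to -1.15. The number of members lower at an adjusted p under 0.05 was 2 to 3 over the alternatives. The number of members higher was 0 in the alternatives that kept every library and 0 to 3 when 1 library was left out, with 3 without WT replicate 3 alone. The log2 fold change of Mgp was -0.017 to 0.56 with 1 library left out and reversed to -0.017 without WT replicate 3, and the cause was not tested. On the mineralization list, genes lower numbered 2 with DESeq2, 0 with limma-voom and 0 with the replicate block, against 1, and 0 to 3 with 1 library left out, 3 of them without WT replicate 3. Genes higher numbered 1 to 7 with 1 library left out, 7 of them without WT replicate 3, against 2. Over the alternatives for single genes, 155 values kept the direction and the side of the threshold, 6 gained the threshold, 7 lost it and 1 reversed. Same-numbered libraries shared only a number: their deviations from the group means correlated across genes at 0.064, -0.050 and -0.0016 for replicates 1, 2 and 3, and only replicate 1 correlated best with its own number. With the replicate block, 2 members were lower and 0 higher, 2 mineralization-list genes were higher, and the paired differences of the log2 ratios were -1.47, 1.67 and 0.80 (exact sign-flip permutation p = 0.25 each, the smallest 3 pairs allow). Leaving out 1 library gave ratio differences of -1.54 to -1.39 for Alpl to Enpp1, 1.46 to 1.93 for Spp1 to Ibsp and 0.71 to 0.90 for Slc20a1 to Slc20a2. Phospho1, Phex and Dmp1 had 2 to 54 counts per library, and with 1 library left out or another setting their log2 fold changes ran from -0.45 to -0.080, from -1.37 to -0.39 and from 0.25 to 1.04, the last of these without WT replicate 3.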
